A study of Caenorhabditis elegans with 14 samples.

Results

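The mir-2 family of *C. elegans* is represented here by the guide strands miR-2-3p, miR-43-3p and miR-250-3p. These 3 strands were taken by name and guide mark alone from a table that holds 214 guide strands and 371 strands in all. The counts come from 14 small RNA libraries of whole animals kept at 20 °C: at L4, 2 from *hrpk-1(tm5522)*, 3 from *hrpk-1(zen17)* and 3 from wild type (N2), and in embryos, 3 from *hrpk-1(zen17)* and 3 from wild type. HRPK-1 is a KH-domain RNA-binding protein related to human hnRNP K. The *zen17* allele is a CRISPR-made deletion that leaves no protein. The *tm5522* allele is an in-frame deletion that leaves a shortened protein, which the study describes as antimorphic, and it was sequenced only at L4. A table of small RNAs holds no *hrpk-1* mRNA, so the alleles cannot be checked in it. Both mutants were compared with N2 to ask which miRNAs depend on *hrpk-1*.

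A miRNA hairpin is cut by Drosha and Dicer into a duplex of 2 strands, of which the guide strand stays in Argonaute and the star strand is mostly degraded. Members of a miRNA family share the seed near the guide's 5′ end, which pairs with target mRNAs, and so can repress overlapping targets. The mir-2 family is found in protostome animals and not in vertebrates. In *Drosophila*, its members are known for repressing the proapoptotic genes reaper, grim and sickle. In all 3 worm genes the guide strand lies on the 3p arm.

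The 3 genes lie on 3 chromosomes (WBcel235, Ensembl annotation). *mir-2* is on the minus strand of chromosome I at 9372768 to 9372865, in an intron of all 4 annotated transcripts of *ppfr-1*, and *mir-71* lies 7061 bases away on the same strand. *mir-43* is on the plus strand of chromosome II at 11889910 to 11890007, outside any host gene, with 4 bases between it and *mir-42* and 15 bases between it and *mir-44*. *mir-250* is on the minus strand of chromosome V at 11769917 to 11770015, also outside any host gene, with 44 bases between it and *mir-61*. The annotated guide arms are 23 bases long in *mir-2*, 23 in *mir-43* and 20 in *mir-250*.

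Library totals ran from 11195163 to 13766699 counts in *hrpk-1(tm5522)* L4 larvae, 15112868 to 18574237 in *hrpk-1(zen17)* L4 larvae, 14926345 to 19762103 in wild type L4 larvae, 6980254 to 10565291 in *hrpk-1(zen17)* embryos and 1919348 to 10900326 in wild type embryos. Levels are given in ppm (parts of 1000000) of a library's miRNA counts. Stage labels were checked with the mir-35 family, which is embryonic, and with let-7-5p, which is late larval. The mir-35 family held 51.4% to 77.6% of the counts in embryos and 0.140% to 0.386% at L4, and let-7-5p lay between 7.0 and 34.6 ppm in embryos and between 11490 and 47805 ppm at L4. Wild type embryo replicate 3 stood apart, with the fewest counts (1919348) and the lowest mir-35 family share (51.4%). Wild type L4 replicate 2 had the highest mir-35 family share at L4 (0.386%) and the lowest let-7-5p level (11490 ppm).

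miR-2-3p was the most abundant member in 4 of the 5 groups. The *hrpk-1(tm5522)* libraries held 144 and 145 ppm. In *hrpk-1(zen17)* L4 larvae it had 231, 214 and 246 ppm, and in wild type L4 larvae 256, 274 and 158 ppm. Both *tm5522* libraries lay below every other L4 library, by a small margin to wild type replicate 3. Many strands outside the family also separated *tm5522* from *zen17* L4 larvae, so this is not particular to miR-2-3p. Its embryo levels were 326, 858 and 378 ppm in *hrpk-1(zen17)* and 176, 292 and 908 ppm in wild type. The embryo groups overlapped over most of their range, and the highest embryo value came from the wild type library that stood apart. By group mean, miR-2-3p ranked between 46th and 62nd among the 214 guide strands.

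miR-43-3p was the scarcest member at L4. *hrpk-1(tm5522)* larvae had 6 and 13 counts of it, or 0.536 and 0.944 ppm, with exact 95% Poisson intervals of 2.20 to 13.1 and 6.92 to 22.2 counts that cover counting error only. In *hrpk-1(zen17)* L4 larvae it had 66, 53 and 59 counts (4.37, 3.51 and 3.18 ppm), and in wild type L4 larvae 48, 99 and 42 counts (3.07, 6.63 and 2.13 ppm). Both *tm5522* libraries lay below every other library of the series. That separation from *zen17* L4 larvae was shared by many strands outside the family, so it is not particular to miR-43-3p. Embryos held 51.2, 149 and 50.3 ppm in *hrpk-1(zen17)* and 27.2, 45.3 and 253 ppm in wild type. Its rank among guide strands was 68th and 59th in these embryo groups, against 143rd in *tm5522*, 116th in *zen17* and 118th in wild type at L4. The highest value of each of the wild type groups came from a library that stood apart, replicate 3 of the embryos and replicate 2 of the L4 larvae.

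miR-250-3p was the only member with its highest group mean in larvae. The *hrpk-1(tm5522)* libraries held 76.4 and 57.8 ppm. The *hrpk-1(zen17)* L4 libraries had 168, 193 and 146 ppm, and the wild type L4 libraries 415, 271 and 274 ppm. The 3 L4 groups did not overlap, with *tm5522* lowest and wild type highest. Other strands also separated *zen17* from wild type L4 larvae, such as miR-1-3p (lower) and miR-66-5p (higher), so this is not particular to miR-250-3p. The share of all strands that did so was not counted. Embryos held 142, 324 and 120 ppm in *hrpk-1(zen17)* and 101, 108 and 377 ppm in wild type, again with overlap between genotypes. Its rank among guide strands ran from 55th in wild type L4 larvae and wild type embryos to 79th in *tm5522*.

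**Figure D1:**
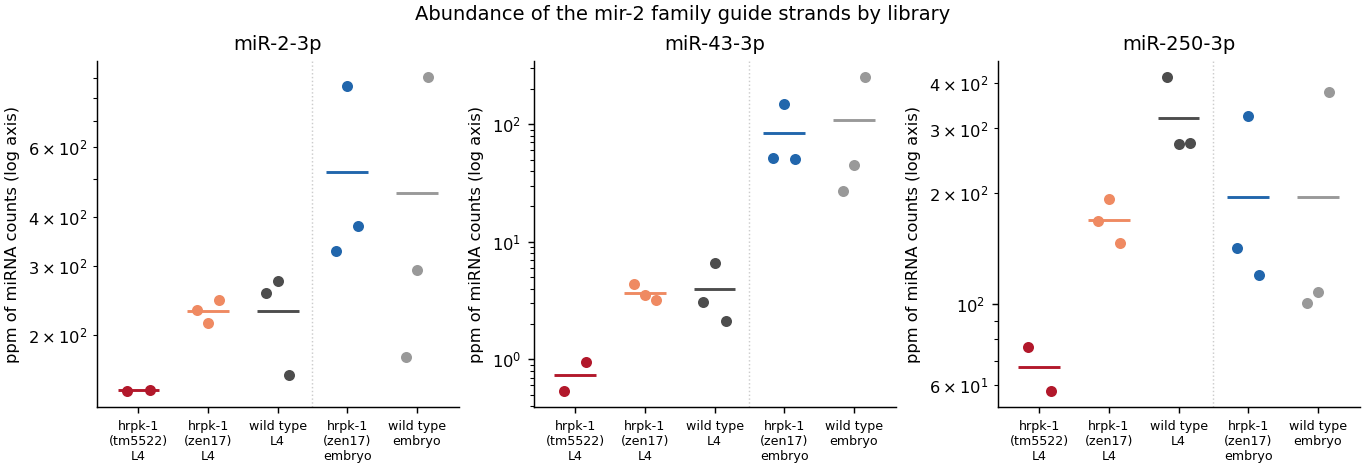
Each panel plots 1 guide strand, with ppm of the library's miRNA counts on a log axis and a point for each library of the 5 groups. The *tm5522* points lie lowest among the L4 groups in every panel, and miR-43-3p is separated between L4 larvae (0.536 to 6.63 ppm) and embryos (27.2 to 253 ppm). Many strands outside the family also separated *tm5522* from *zen17* L4 larvae, such as miR-71-5p (higher) and miR-72-5p (lower). The share of all strands that did so was not counted.

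The largest differences between genotypes were in *hrpk-1(tm5522)* L4 larvae. miR-250-3p averaged 67.1 ± 13.1 ppm in *tm5522* (SD, n = 2) and 320 ± 81.9 ppm in wild type (SD, n = 3), and fell by 2.32 on the log2 scale (SE 0.40, 4.99-fold lower, adjusted p = 0.0152 by edgeR's quasi-likelihood test with Benjamini-Hochberg adjustment over all strands). miR-43-3p averaged 0.740 ± 0.289 ppm in *tm5522* and 3.94 ± 2.38 ppm in wild type, and fell by 2.29 (SE 0.50, 4.90-fold lower, adjusted p = 0.0298 by edgeR). miR-2-3p averaged 144 ± 0.997 ppm in *tm5522* and 229 ± 62.2 ppm in wild type. Its log2 difference of -0.66 (95% interval -1.24 to -0.07) did not pass the threshold of 0.05 (adjusted p = 0.0947 by edgeR). In this comparison 22.4% of the 232 strands tested passed, 24 of them higher and 28 lower in *tm5522*, and the median log2 difference of all strands tested was -0.09. miR-43-3p reached the minimum of 10 counts in 2 libraries mainly through its wild type libraries, so its presence among the strands tested is not independent of its level there.

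These calls rested on both *tm5522* libraries, since leaving out either one ended every call in the comparison (the library left is then assumed to vary like those of wild type). Without *tm5522* replicate 1 the log2 difference was -2.43 for miR-250-3p and -1.87 for miR-43-3p (adjusted p = 0.157 and 0.199 by edgeR), and without replicate 2 it was -2.13 and -2.77 (adjusted p = 0.140 for each). The miR-43-3p call was also lost without wild type L4 replicate 3 (log2 difference -2.41, adjusted p = 0.0583 by edgeR), and miR-2-3p passed without wild type L4 replicate 2 (-0.76, adjusted p = 0.0101). The number of strands called in the whole comparison was 25, 110 and 21 without wild type L4 replicates 1, 2 and 3, against 52 with all libraries. let-7-5p moved with the allele too, at 47805 and 45644 ppm in *tm5522*, 21991 to 36361 ppm in *hrpk-1(zen17)* L4 larvae and 11490 to 29966 ppm in wild type L4 larvae. Its part in the changes of the family was not tested. In whole animals, fewer cells that make a miRNA and less of it per cell cannot be told apart.

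Against *hrpk-1(zen17)* larvae of the same stage, all 3 members were lower in *tm5522*. miR-43-3p fell by 2.38 on the log2 scale (SE 0.43, 5.20-fold lower, adjusted p = 0.00255 by edgeR) and miR-250-3p by 1.43 (SE 0.24, 2.70-fold lower, adjusted p = 0.00202 by edgeR). Their calls held under the 12 alternative settings run, including without either *tm5522* library, with log2 differences of -2.76 to -1.99 for miR-43-3p and -1.57 to -1.13 for miR-250-3p. miR-43-3p reached the count minimum mainly through its *zen17* libraries, and under the minimum of 50 counts only through them, so that setting adds no support. With no filter its difference was -2.26 (adjusted p = 0.00339 by edgeR). miR-2-3p fell by 0.79 (SE 0.25, 1.73-fold lower, adjusted p = 0.0337 by edgeR). Its call was lost without *tm5522* replicate 1 or 2 (-0.71 and -0.69, adjusted p = 0.156 and 0.198) and without *zen17* L4 replicate 1 or 3 (-0.73 for each, adjusted p = 0.121 and 0.0829). It was lost as well with all libraries kept, with no filter (-0.66, adjusted p = 0.0664), with library totals as the scale (-0.67, adjusted p = 0.0873) and in a fit over all 14 libraries (-0.71, adjusted p = 0.144). The miR-2-3p call held under 4 of 12 alternatives. Of the 229 strands tested between these alleles, 38.4% passed, so 3 calls among 3 members stand against a high background. The comparison shares its *tm5522* libraries with that against wild type.

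No member passed the test between the null allele and wild type at the same stage. In *hrpk-1(zen17)* L4 larvae, the mean of miR-2-3p was 230 ± 15.6 ppm and that of wild type larvae 229 ± 62.2 ppm (SD, n = 3 each), and the log2 difference was 0.12 (95% interval -0.47 to 0.71, adjusted p = 0.859 by edgeR). For miR-43-3p the difference was 0.09 (95% interval -0.72 to 0.90, adjusted p = 0.925 by edgeR), between 3.68 ± 0.615 ppm in *zen17* and 3.94 ± 2.38 ppm in wild type. Its sign followed the scaling, being opposite to that of the ppm means and negative with library totals (-0.094), RLE size factors (-0.016), DESeq2 (-0.017) or a minimum of 50 counts (-0.021). miR-250-3p averaged 169 ± 23.2 ppm in *zen17* and 320 ± 81.9 ppm in wild type, without overlap between the libraries. Its log2 difference of -0.91 (95% interval -1.60 to -0.21) had an unadjusted p of 0.0159 and an adjusted p of 0.212 by edgeR. Without wild type L4 replicate 2, the library with the lowest let-7-5p level, the difference was -1.24 and passed (adjusted p = 0.0065 by edgeR). In the whole comparison 0% of 228 strands passed with edgeR, 33 had an unadjusted p under 0.05, DESeq2 called 9 strands, and edgeR called 13 without that library.

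In embryos the 3 members did not differ detectably between *hrpk-1(zen17)* and wild type. miR-2-3p averaged 521 ± 293 ppm in *zen17* and 459 ± 393 ppm in wild type (SD, n = 3 each), and its log2 difference was -0.05 (95% interval -0.77 to 0.67, adjusted p = 0.909 by edgeR). The corresponding values were 83.5 ± 56.8 and 108 ± 125 ppm for miR-43-3p, with a log2 difference of -0.47 (95% interval -1.51 to 0.56, adjusted p = 0.513 by edgeR). miR-250-3p averaged 195 ± 112 ppm in *zen17* and 195 ± 157 ppm in wild type, with a log2 difference of -0.27 (95% interval -0.95 to 0.41, adjusted p = 0.562 by edgeR). Without wild type embryo replicate 3 the differences of miR-2-3p and miR-43-3p were 0.23 and 0.26. For miR-2-3p the sign also turned with library totals as the scale (0.19) and in a fit over all 14 libraries (0.066), and no direction is read from either difference. In this comparison 17.9% of 201 strands passed, 21 higher and 15 lower, and the number ranged between 17 and 43 when a library was left out (17, 19 and 43 without wild type embryo replicates 1, 2 and 3, and 17, 39 and 21 without those of *zen17*).

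Whether the *zen17* difference itself changed between stages was tested with an interaction term. The change at L4 minus the change in embryos was 0.07 on the log2 scale for miR-2-3p (SE 0.50, adjusted p = 0.968 by edgeR), 0.51 for miR-43-3p (SE 0.70, adjusted p = 0.756) and -0.76 for miR-250-3p (SE 0.53, adjusted p = 0.494). None passed, where 4.8% of the 250 strands tested did.

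**Figure D2:**
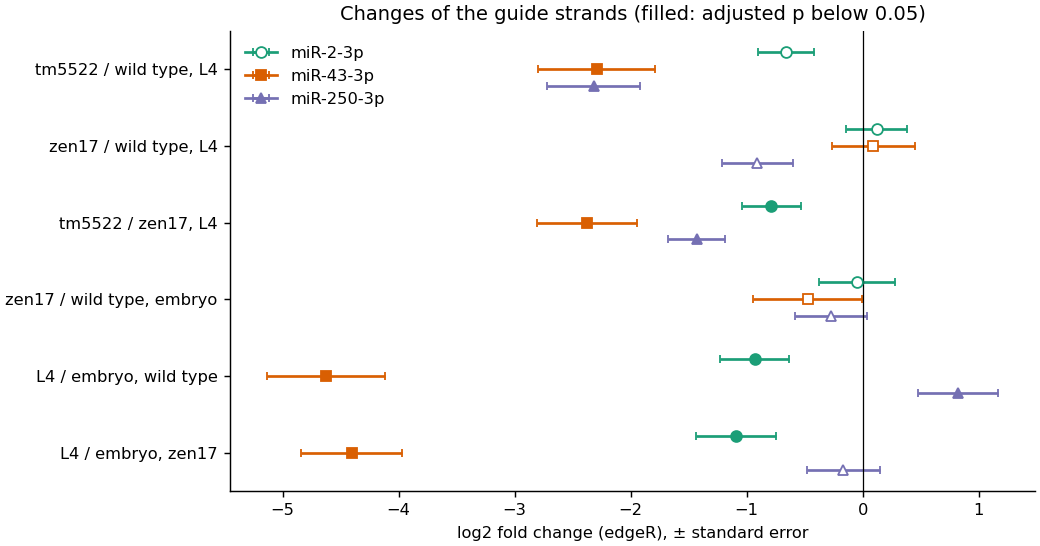
The log2 fold change of each guide strand (edgeR, horizontal axis) with its standard error is drawn for each of the 6 comparisons, filled where the adjusted p was below 0.05. miR-43-3p lies at -2.29 and -2.38 in the *tm5522* comparisons and at -4.63 and -4.41 in the stage comparisons, while the *zen17* comparisons with wild type hold no filled point.

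The members differed most in their stage pattern. miR-43-3p fell at L4 in both genotypes: in wild type it averaged 3.94 ± 2.38 ppm at L4 and 108 ± 125 ppm in embryos, and fell by 4.63 on the log2 scale (SE 0.51, 24.7-fold lower, adjusted p = 9.33e-06 by edgeR). In *hrpk-1(zen17)* it fell by 4.41 (SE 0.44, 21.2-fold lower, adjusted p = 1.81e-06 by edgeR). Both calls held under all 13 alternatives, with log2 differences of -5.16 to -3.88 in wild type and -4.74 to -3.81 in *zen17*.

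miR-2-3p was lower at L4 by 0.93 on the log2 scale in wild type (SE 0.30, adjusted p = 0.0138 by edgeR) and by 1.09 in *zen17* (SE 0.35, adjusted p = 0.0130 by edgeR). The *zen17* call held under all 13 alternatives, although the difference shrank to -0.62 without *zen17* embryo replicate 2. In wild type the call was lost without embryo replicate 2 (-1.13, adjusted p = 0.0583) or 3 (-0.61, adjusted p = 0.0600) and without L4 replicate 1 (-0.95, adjusted p = 0.0543) or 3 (-0.93, adjusted p = 0.0849), as well as with library totals as the scale (-0.998, adjusted p = 0.247), and the wild type stages overlapped in ppm. miR-250-3p, by contrast, was higher at L4 in wild type by 0.82 (SE 0.34, adjusted p = 0.0489 by edgeR). That call lay at the threshold: 9 of 13 alternatives ended it, among them the omission of embryo replicate 1 (0.56, adjusted p = 0.321) or 2 (0.55, adjusted p = 0.352) and of L4 replicate 1 (0.73, adjusted p = 0.148) or 3 (0.68, adjusted p = 0.202). In *zen17* its stage difference was -0.17 (95% interval -0.85 to 0.52, adjusted p = 0.630 by edgeR). Between stages 72.2% of 230 strands passed in wild type and 72.7% of 238 in *zen17*, so a call here is common. What set the members apart was the size of their differences. Under the main settings their signs differed in wild type only, where the miR-250-3p call lay at the threshold. In *zen17* the miR-250-3p difference ranged from -0.38 to 0.33 over the alternatives, so no direction is read from it there.

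Because ratios within a library need no scaling, the members were also set against each other. The log2 ratio of miR-43-3p to miR-2-3p averaged -5.98 ± 0.54 in wild type L4 larvae and -2.41 ± 0.49 in wild type embryos (SD, n = 3 each), a difference of -3.57 without overlap (p = 0.1 by an exact permutation test, two-sided, below which 3 libraries against 3 cannot go). That of miR-250-3p to miR-2-3p averaged 0.49 ± 0.44 in wild type L4 larvae and -1.17 ± 0.33 in wild type embryos, a difference of 1.66 without overlap (exact p = 0.1). miR-250-3p had 53.1% and 39.8% of the counts of miR-2-3p in *tm5522*, 59.7% to 90.0% in *zen17* L4 larvae and 99.1% to 173% in wild type L4 larvae, 3 groups without overlap. The log2 difference of this ratio was -0.94 between *zen17* and wild type L4 larvae (exact p = 0.1) and -1.61 between *tm5522* and wild type (exact p = 0.2, the smallest that 2 libraries against 3 gave). Over the 36 ratio tests run, no Benjamini-Hochberg adjusted p was under 0.343.

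Taken as shares of the family's guide counts, miR-43-3p made up 0.243% and 0.463% in *tm5522*, 0.804% to 1.08% in *zen17* L4 larvae, 0.456% to 1.20% in wild type L4 larvae, 9.17% to 11.2% in *zen17* embryos and 8.95% to 16.4% in wild type embryos. miR-250-3p made up 28.4% to 34.6% in *tm5522*, 37.1% to 47.0% in *zen17* L4 larvae, 49.2% to 63.1% in wild type L4 larvae, 21.8% to 27.3% in *zen17* embryos and 24.2% to 33.2% in wild type embryos. At L4 it was thus the major member in 2 of 3 wild type libraries and in no mutant library. The summed level of the 3 strands was 221 and 204 ppm in *tm5522*, 395 to 411 ppm in *zen17* L4 larvae and 434 to 674 ppm in wild type L4 larvae. In embryos it was 520 to 1331 ppm in *zen17* and 304 to 1537 ppm in wild type. Shares and sums cover these 3 strands only, since whether other strands of the table share their seed was not checked here.

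**Figure D3:**
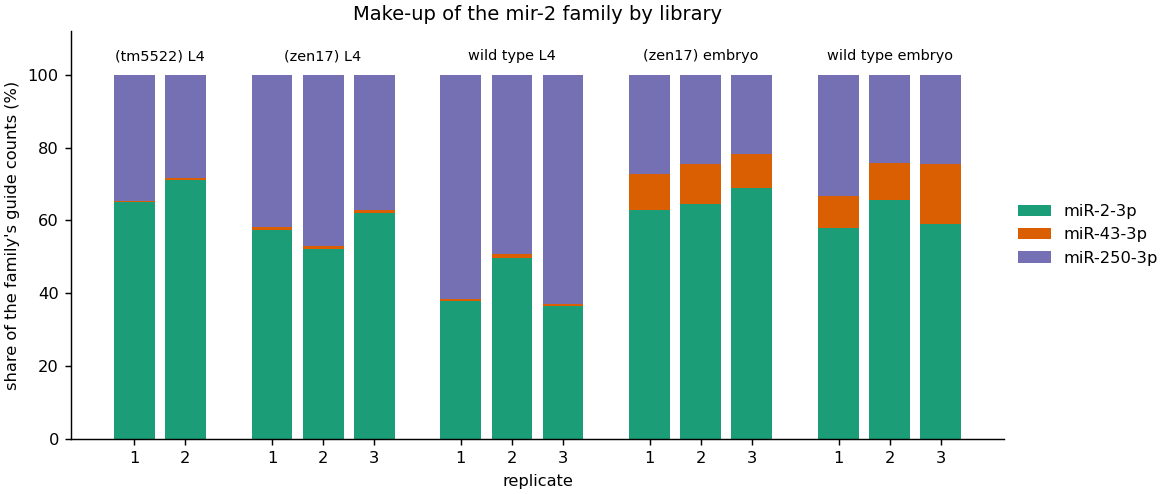
Stacked bars give the share of miR-2-3p, miR-43-3p and miR-250-3p in the family's guide counts (vertical axis, percent) for each of the 14 libraries. The miR-43-3p segment is visible in embryos (8.95% to 16.4%) and nearly absent at L4 (0.243% to 1.20%), and the miR-250-3p segment is tallest in wild type L4 larvae.

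The star strands, which the choice of members did not use, did not all move with the guides in *tm5522*. miR-250-5p had 433 and 419 counts in *tm5522* and 714, 507 and 493 in wild type L4 larvae, and its log2 difference was -0.03 (SE 0.30, adjusted p = 0.939 by edgeR). miR-43-5p had 20 and 19 counts in *tm5522* and 18, 11 and 13 in wild type L4 larvae, with a log2 difference of 0.86 (SE 0.47, adjusted p = 0.210 by edgeR). miR-2-5p had 22 and 16 counts in *tm5522* and 136, 199 and 112 in wild type L4 larvae, and fell by 2.52 on the log2 scale (SE 0.37, adjusted p = 0.0113 by edgeR). Against wild type the star strand thus passed only for miR-2, and the guide only for miR-43 and miR-250, where 22.4% of 232 strands passed. Passing for 1 strand and not the other is no test of a difference, and miR-2-3p was lower as well (-0.66). Without *tm5522* replicate 1 or 2 the miR-2-5p difference was -2.84 or -2.18 (adjusted p = 0.0958 and 0.0912). Against *zen17* L4 larvae, miR-2-5p fell by 1.95 (adjusted p = 0.00269 by edgeR), with log2 differences of 0.80 for miR-43-5p (adjusted p = 0.271) and 0.54 for miR-250-5p (adjusted p = 0.113). There the guide miR-2-3p passed as well (adjusted p = 0.0337 by edgeR).

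Within a library the guide to star ratio puts these together. For miR-250 the guide had 1.97 and 1.90 times the star's counts in *tm5522* and 9.06, 7.98 and 10.98 times in wild type L4 larvae, a log2 difference of -2.26 (SE 0.48, adjusted p = 0.0184 by limma). The guide made up 66.4% (exact binomial 95% interval 63.7% to 69.0%) and 65.5% (62.8% to 68.2%) of the duplex counts in *tm5522*, against 88.9% to 91.7% in wild type L4 larvae. For miR-43 the strand named guide was the rarer one in *tm5522*, with 6 guide to 20 star counts in one library and 13 to 19 in the other, or 23.1% (8.97% to 43.6%) and 40.6% (23.7% to 59.4%) of the pair. In wild type L4 larvae it made up 72.7% to 90.0%, and in *zen17* L4 larvae 69.4% to 94.3%. The miR-43 difference against wild type was -3.15 on the log2 scale (SE 0.68, adjusted p = 0.0184 by limma). miR-2 moved the other way, with 71.5 and 121 guides per star in *tm5522* and 20.5 to 29.3 in wild type L4 larvae, a log2 difference of 1.87 (SE 0.52, adjusted p = 0.0315 by limma). Of the 98 pairs tested, 27.6% passed, 14 with a higher and 13 with a lower ratio in *tm5522*.

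Leaving out *tm5522* replicate 1 or 2 ended these calls, with log2 differences of -2.29 and -2.23 for miR-250 (adjusted p = 0.0875 and 0.0828 by limma), -2.58 and -3.71 for miR-43 (0.105 and 0.0600) and 2.24 and 1.49 for miR-2 (0.0875 and 0.159). Leaving out wild type L4 replicate 1 or 3 ended those of miR-250 (-2.27 and -2.14, adjusted p = 0.0553 and 0.0543) and miR-2 (1.96 and 1.93, adjusted p = 0.0691 and 0.0738). Against *zen17* L4 larvae the differences were -1.99 for miR-250 (SE 0.36, adjusted p = 0.0183 by limma), -3.48 for miR-43 (SE 0.85, adjusted p = 0.0332) and 1.16 for miR-2 (SE 0.45, adjusted p = 0.104), where 24.5% of 98 pairs passed. The miR-250 call there was lost on omission of *zen17* L4 replicate 1 (-1.85, adjusted p = 0.0658) or 3 (-1.92, adjusted p = 0.0675) or of *tm5522* replicate 1 (-2.02, adjusted p = 0.0563). The miR-43 call was lost without *zen17* L4 replicate 1, 2 or 3 (-2.73, -3.62 and -4.09, adjusted p = 0.0658, 0.0838 and 0.0574) or without *tm5522* replicate 1 (-2.91, adjusted p = 0.0926). The miR-43 star had at most 26 counts in any L4 library, and such counts limit what its ratio can show.

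No guide to star ratio of the family passed between *zen17* and wild type. At L4 the log2 differences were 0.70 for miR-2, 0.33 for miR-43 and -0.26 for miR-250 (adjusted p = 0.609, 0.842 and 0.763 by limma), and 0% of 101 pairs passed, with 10 at an unadjusted p under 0.05. In embryos they were 0.61, 0.27 and -0.18 (adjusted p = 0.635, 0.876 and 0.878 by limma), and 0% of 81 pairs passed, with 8 at an unadjusted p under 0.05.

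Between stages the ratio of miR-2 was lower at L4 in both genotypes, by 2.25 on the log2 scale in wild type (SE 0.56, adjusted p = 0.00843 by limma) and by 2.16 in *zen17* (SE 0.44, adjusted p = 0.0101 by limma). miR-2 held 20.5 to 29.3 guides per star in wild type L4 larvae and 82.0 to 232 in wild type embryos, without overlap. Its star strand was higher at L4 in wild type by 1.30 (adjusted p = 0.0104 by edgeR) while its guide was lower. The *zen17* call on the ratio was lost without *zen17* L4 replicate 1 (-2.07, adjusted p = 0.0523). miR-43 also had a lower ratio at L4 in wild type (-2.33, SE 0.66, adjusted p = 0.0153 by limma), a call lost without embryo replicate 2 (-1.85, adjusted p = 0.0574) or L4 replicate 1 or 3 (-2.003 and -2.14, adjusted p = 0.0579 and 0.0558). Its difference in *zen17* was -2.27 (adjusted p = 0.0744) and passed without *zen17* L4 replicate 1 (-3.02, adjusted p = 0.0354). miR-43-5p itself fell by 2.35 at L4 in wild type (adjusted p = 0.00599 by edgeR), which did not pass without embryo replicate 3 (-1.55, adjusted p = 0.0600). For miR-250 the ratio differed by 0.21 in wild type and 0.13 in *zen17* (adjusted p = 0.783 and 0.853 by limma), and miR-250-5p by 0.58 in wild type (adjusted p = 0.149 by edgeR). Across all pairs 54.5% of 99 passed in wild type and 35.6% of 104 in *zen17*.

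**Figure D4:**
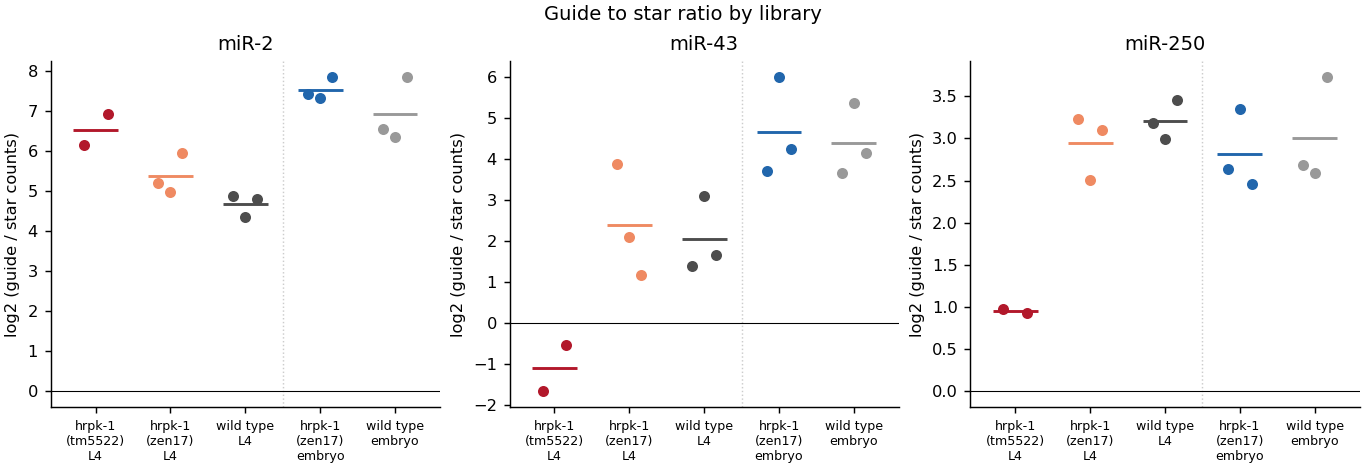
Each panel plots the log2 ratio of guide to star counts (vertical axis) of 1 gene, with a point per library in the 5 groups and a line at 0, where both strands have equal counts. The *tm5522* points are the highest of the L4 groups for miR-2 and the lowest for miR-43, where they lie below 0, and for miR-250.

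2 members are encoded in clusters, and their neighbours were measured in the same libraries. Beside *mir-43*, miR-42-3p is a member of the embryonic mir-35 family, and miR-44-3p belongs to another family and had nearly the same counts as miR-45-3p in every library, differing by at most 0.195%, so that these 2 cannot be told apart. Against wild type, *tm5522* larvae had a log2 difference of -0.59 for miR-42-3p (adjusted p = 0.422 by edgeR) and -0.28 for miR-44-3p (adjusted p = 0.478 by edgeR), while miR-43-3p fell by 2.29. The miR-42-3p levels were 688 and 767 ppm in *tm5522* and 686, 2461 and 509 ppm in wild type L4 larvae. Against *zen17* L4 larvae miR-42-3p passed (-0.75, adjusted p = 0.0478 by edgeR) and miR-44-3p did not (-0.17, adjusted p = 0.569 by edgeR). There miR-43-3p fell by 2.38. miR-43-3p had 0.0779% and 0.123% of the counts of miR-42-3p in *tm5522*, against 0.270% to 0.448% in wild type L4 larvae, without overlap (log2 difference -1.84, exact permutation p = 0.2). The star strand miR-42-5p had 26 and 32 counts in *tm5522* and 7, 8 and 9 in wild type L4 larvae, so it reached the minimum of 10 counts only through *tm5522*, and its test is not given. The guide to star ratio of miR-42 was lower as well, by 2.61 (SE 0.68, adjusted p = 0.0263 by limma). It rests on these few star counts, which were higher in *tm5522*, while the guide miR-42-3p had -0.59. The strands of miR-43 had the same signs, with 0.86 for the star miR-43-5p (not past the threshold) and -2.29 for the guide. The ratio of miR-44 differed by -0.02 (SE 0.52, adjusted p = 0.981 by limma).

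In its wild type stage difference miR-43-3p was closer to miR-42-3p than to miR-44-3p. At L4, miR-42-3p was lower by 4.39 on the log2 scale in wild type (SE 0.51, adjusted p = 1.48e-05 by edgeR), and its ratio with miR-43-3p differed by 0.01 between stages (exact permutation p = 1), a value that ranged from -0.56 without embryo replicate 1 to 0.76 without embryo replicate 3. The difference of miR-44-3p was -0.69 (SE 0.33, adjusted p = 0.0787 by edgeR), and the log2 ratio of miR-43-3p to it differed by -3.78 between L4 and embryos without overlap (exact permutation p = 0.1).

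Beside *mir-250*, miR-61-3p is known in *C. elegans* for repressing *vav-1* during vulval cell specification. It fell by 1.24 in *tm5522* against wild type (SE 0.24, adjusted p = 0.0211 by edgeR) and by 0.95 against *zen17* (SE 0.20, adjusted p = 0.00526 by edgeR). miR-250-3p thus fell with its neighbour, and had 6.57% and 4.61% of its counts in *tm5522*, against 7.17% to 14.7% in wild type L4 larvae, without overlap (log2 difference -1.03, exact permutation p = 0.2). In wild type both were higher at L4, miR-61-3p by 0.86 (adjusted p = 0.0165 by edgeR), and their ratio differed by -0.11 between stages (exact permutation p = 0.9), a difference that was 0.20 without embryo replicate 3 and 0.21 without L4 replicate 2. The guide to star ratio of miR-61 differed by -1.004 between *tm5522* and wild type (SE 0.51, adjusted p = 0.187 by limma). *mir-2* has no such close neighbour. The guide of the *mir-71* gene, miR-71-5p, known for its role in worm lifespan, rose by 1.04 in *tm5522* (adjusted p = 0.0341 by edgeR), where miR-2-3p had -0.66, and was higher at L4 in wild type by 3.34 (adjusted p = 9.21e-06 by edgeR), where miR-2-3p was lower.

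**Figure D5:**
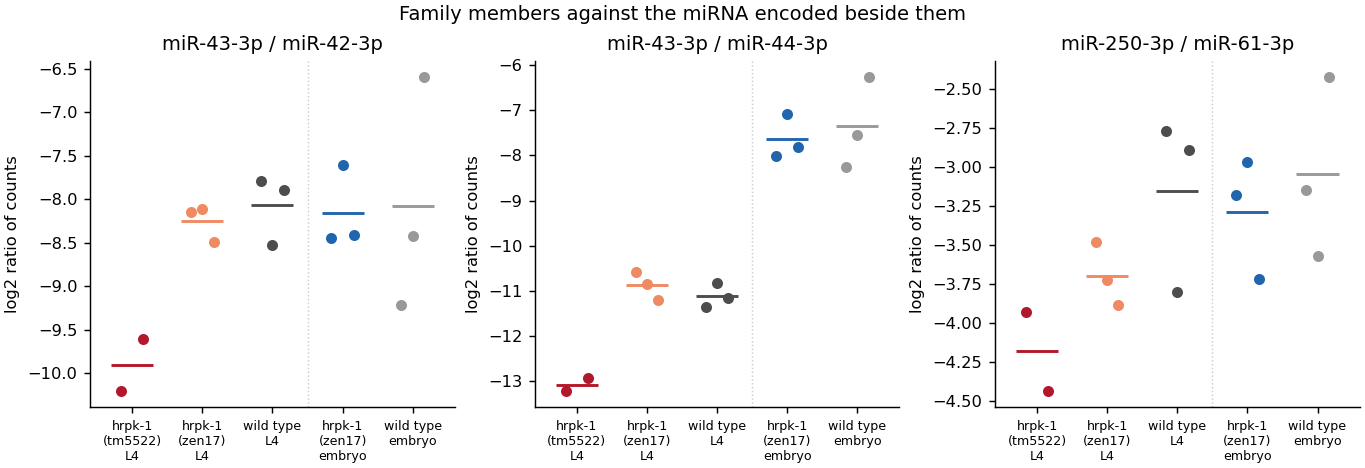
The log2 ratio of counts of a family member to the miRNA encoded beside it is plotted with a point per library in the 5 groups. Ratios of miR-43-3p to miR-42-3p overlap between stages and those to miR-44-3p do not, and the *tm5522* points lie lowest in each panel.

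The guide strands nearest in pattern to each member were found from the 5 group means of log2 CPM, each centred on its own mean, among 158 guide strands. This likeness is a description over 5 groups that share their libraries and scaling. For miR-2-3p the nearest were miR-44-3p (root mean square difference 0.226), the indistinguishable miR-45-3p (0.227) and miR-255-3p (0.253), where the median guide strand differed by 1.21. For miR-43-3p they were miR-76-3p (0.474), its cluster neighbour miR-42-3p (0.636) and miR-231-3p (0.648), against a median of 2.72. miR-76-3p shared both the high embryo level and the low *tm5522* level, with 41.5 and 55.7 ppm in *tm5522*, 211 to 405 ppm in *zen17* L4 larvae and 162 to 750 ppm in wild type L4 larvae. For miR-250-3p they were miR-4936 (0.169), miR-354 (0.354) and miR-244-5p (0.366), against a median of 1.33, but miR-4936 had at most 67 counts and miR-354 at most 19 in any library. No member was among the nearest 3 of another. The difference between miR-2-3p and miR-250-3p was 0.691, which put miR-250-3p 39th in likeness to miR-2-3p and miR-2-3p 21st to miR-250-3p. miR-43-3p ranked 115th to miR-2-3p (1.96) and 128th to miR-250-3p (2.37), while from the side of miR-43-3p, whose differences from most guides were larger, miR-2-3p ranked 34th and miR-250-3p 58th.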

How the data were processed

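Small RNAs of whole worms were gel selected by the authors, made into libraries with a NEXTflex kit and sequenced on an Illumina NextSeq. The authors deposited raw counts per mature strand, with guide and star strands marked, in 1 table for all 14 libraries. The submitters' processing notes name cutadapt 1.15 and Bowtie. The genome build behind the counts and the treatment of reads that match several miRNAs are not given in the sources used here.

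Columns were matched to samples through their labels. The members and lists were chosen with earlier results of these data known. Named miRNAs are the 3 guides and their stars, miRNAs whose genes start within 10000 bases on the same strand, and the 3 guides nearest in pattern to each member. A rule on shared seed bases was not applied, since no sequences were used here. ppm is a count in parts of 1000000 of the library's total in the table. Tests between groups used the quasi-likelihood method of edgeR 4.0.16 under R 4.3.3, with TMM factors and only the 2 groups in question. The interaction test used the wild type and *zen17* groups of both stages. The log2 CPM values behind the nearest patterns and the replicate correlations had a prior count of 2. A strand was tested where the number of libraries holding 10 counts or more was no lower than the size of the smaller group, and p-values were adjusted by Benjamini-Hochberg over all strands tested. Standard errors were derived from the test statistic. Guide to star ratios (pseudocount 0.5) were tested with limma 3.58.1 over pairs with a guide mean of at least 10 and at least 10 star counts in sum. Ratios between miRNAs were compared by exact two-sided permutation tests. The fits were first tested on simulated data. Alternatives were RLE size factors, total counts as the scale, DESeq2 1.42.0, no filter, a minimum of 50 counts, all 14 libraries in 1 fit, a block for the replicate number, single libraries left out, and a pseudocount of 5. The labels do not say whether replicates came from separate cultures, so p-values measure only the spread between these libraries. A count of 0 allows up to 3 counts, or 0.152 to 1.56 ppm, and these limits, like the intervals, cover only the error of counting reads, which PCR can copy. Genes were located in the WBcel235 annotation of Ensembl (release 115). Figures were drawn with matplotlib 3.10.9.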

Additional observations from a re-analysis of the deposited data

How the results depend on the processing

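Under every alternative run, the fall of miR-43-3p and miR-250-3p in *tm5522* against *zen17* and the fall of miR-43-3p at L4 in both genotypes stayed past the threshold. Under the minimum of 50 counts, miR-43-3p was tested against *zen17* only through the *zen17* libraries. Between wild type stages it was then tested through its embryo libraries. That setting adds no support for miR-43-3p in either comparison. The alternatives are limited by 2 *tm5522* libraries, the depth of wild type embryo replicate 3 and the low miR-43 counts at L4, and where a value moved the cause was not tested unless stated. A minimum of 50 counts gave no value for miR-43-3p in *tm5522* against wild type or for miR-43-5p, since these were then not tested.

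With the library total as the scale, the median strand shifted by 0.39 on the log2 scale in *zen17* against wild type embryos, 17 strands passed (16 higher, 1 lower) in place of 36 (21 and 15), and miR-2-3p and miR-250-3p were at 0.19 and 0.0050. Under the same scale, *zen17* against wild type L4 larvae gave 3 calls and -0.094 for miR-43-3p, *tm5522* against *zen17* gave -0.67 for miR-2-3p, the wild type stages gave -0.998 for miR-2-3p and 0.72 for miR-250-3p (neither past the threshold), and the *zen17* by stage term of miR-2-3p was -0.18. The wild type stage comparison shifted by 0.21 with 85 higher and 51 lower calls, against 94 and 72. With RLE size factors, miR-43-3p was at -0.016 in *zen17* against wild type L4 larvae, miR-250-3p at 0.73 between wild type stages (not past the threshold) and 0.096 between *zen17* stages. DESeq2 gave 9 calls and -0.017 for miR-43-3p in *zen17* L4 larvae, 80 calls in *tm5522* against wild type, 0.73 and 0.096 for miR-250-3p in the stage comparisons of wild type and *zen17*, and 19 calls for the *zen17* by stage term. Without a filter, miR-2-3p was at -0.66 in *tm5522* against *zen17*, miR-250-3p at 0.85 between wild type stages (neither past the threshold), and the *zen17* by stage term of miR-2-3p at -0.17. With a minimum of 50 counts, miR-43-3p was at -0.021 in *zen17* L4 larvae and miR-250-3p at 0.74 between wild type stages. A fit over all 14 libraries gave 81 calls in *tm5522* against wild type and 39 against *zen17*, where miR-2-3p was at -0.71 and did not pass, and 0.066 for miR-2-3p in *zen17* embryos. With a pseudocount of 5, the guide to star ratio of miR-43 between *zen17* stages passed at -2.50.

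Same-numbered replicates did not deviate together in all pairs of any comparison (correlations of -0.361 to 0.123), so the numbers were not taken to pair the libraries. With the replicate block, *tm5522* against *zen17* gave 53 calls, 17 higher and 36 lower (41 and 47 without the block). The block ended the call of miR-2-3p there (-0.68). The block also gave 0.024 for miR-250-5p in *tm5522* against wild type, -0.0032 for the *zen17* by stage term of miR-2-3p, and guide to star differences of 1.93 for miR-2 in *tm5522* against wild type and -1.92 for miR-250 against *zen17*, both no longer past the threshold. It changed no other call on the members' guides, stars or ratios.

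Leaving out single libraries moved the count of calls between 17 and 43 in *zen17* embryos, 0 and 13 in *zen17* L4 larvae, and 0 and 110 in *tm5522* against wild type. In *zen17* embryos miR-2-3p then ranged from -0.34 to 0.23 and miR-43-3p from -0.89 to 0.26, and in *zen17* L4 larvae miR-2-3p from -0.055 to 0.18, miR-43-3p from -0.21 to 0.30 and miR-250-3p from -1.24 to -0.76. In *tm5522* against wild type the ranges were -0.76 to -0.55 for miR-2-3p, -2.77 to -1.87 for miR-43-3p, -2.62 to -2.13 for miR-250-3p and -0.26 to 0.15 for miR-250-5p, and against *zen17* -0.88 to -0.69 for miR-2-3p. Between stages they were -1.32 to -0.61 for miR-2-3p and 0.55 to 1.18 for miR-250-3p in wild type and -0.35 to 0.33 for miR-250-3p in *zen17*, and for the *zen17* by stage term -0.39 to 0.39 for miR-2-3p and -0.44 to 0.93 for miR-43-3p. Guide to star differences ranged in *zen17* embryos from -0.41 to 0.75 for miR-43 and -0.45 to 0.18 for miR-250, and in *zen17* L4 larvae from -0.42 to 0.94 for miR-43. In *tm5522* against wild type they ranged from 1.49 to 2.24 for miR-2, -3.71 to -2.58 for miR-43 and -2.37 to -2.14 for miR-250, and against *zen17* from -4.09 to -2.73 for miR-43 and -2.21 to -1.85 for miR-250. Between stages they ranged from -2.86 to -1.85 for miR-43 in wild type, and in *zen17* from -2.45 to -1.95 for miR-2, -3.02 to -1.59 for miR-43 and -0.047 to 0.40 for miR-250.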
